A study of Homo sapiens with 28 samples.

Results

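The comparison of time 24 with time 8 covers 6 of the 28 arrays of a time course in SK-N-AS, a human neuroblastoma cell line in long use in which MYCN is not amplified. The members are the 3 arrays of the MYCN line labelled time 24 and the 3 labelled time 8, taken by their titles. These times were paired with the plateau of the MYCN transcript in these data already known. Cells of this line, SK-N-AS-tet with inducible MYCN, were harvested at both times after doxycycline had been added to the medium, so both groups were induced and neither is an uninduced control. Doxycycline releases a tet repressor and so switches on the MYCN transgene. The remaining 15 arrays of the MYCN line give times 0, 4, 48, 96 and 192 with 3 arrays each. A mock line, labelled SKNAS-pcDNA6TR, gives 1 array at each of the 7 times. The labels state no unit of time and do not say whether the inducible line is a single clone. They name time courses in triplicate but no separate cultures. The p-values therefore reflect only how far these arrays scatter, which may be technical. The question of the comparison is what changes once the MYCN transcript has reached its plateau.

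MYCN is a transcription factor of the MYC family. It binds DNA as a dimer with MAX, preferentially at E-boxes with the letters CACGTG, and is known for raising genes of ribosome production, nucleotide synthesis, chaperones and amino acid uptake. In neuroblastoma, amplification of MYCN marks aggressive tumours. Genes can move late after MYCN appears because their own transcripts build up slowly or because they are reached through other regulators, and expression arrays do not separate these routes.

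Signal values here are deposited linear intensities, in which each array's trimmed mean is 100, and changes are log2 differences, time 24 minus time 8, with their standard error (SE). A gene was called when its limma p-value, adjusted over 11865 tested genes, was under 0.05. The 6 arrays had median signals of 13.2 to 17.2, and the number of arrays limits the precision. The 3′ to 5′ ratio of GAPDH was 1.03 to 1.14 at time 24 and 1.04 to 1.15 at time 8, and that of ACTB 1.13 to 1.31 at time 24 and 1.11 to 1.23 at time 8. Signals of bioD, a spiked hybridisation control, summed to 1765 to 2260 in the 14 arrays of replicates 1 and 2 of the MYCN line. They summed to 2664 to 3231 in the 7 arrays of its replicate 3 and to 2620 to 3183 in the mock line. The labels name no batches. From these control signals alone, replicates 1 and 2 were treated as 1 hybridisation batch and replicate 3 with the mock line as another, and either holds both times.

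Most mesenchymal markers and a smaller part of the noradrenergic ones had clear signal at both times. Of 30 noradrenergic neuroblast markers with a probe set, 11 had a signal of at least 50 in all 6 arrays, and their list summed to 3305 to 3898 at time 24 and 4612 to 5174 at time 8. Defining noradrenergic enzymes were near background, with DBH at 1.6 to 5.9 at time 24 and 0.7 to 7.7 at time 8. Of 27 mesenchymal markers, 21 reached a signal of 50 in all 6 arrays, with summed signals of 14751 to 15281 at time 24 and 14847 to 17103 at time 8. No marker of Schwann cells, endothelium or blood reached that level in all 6 arrays. The endothelial marker PECAM1 did reach it in every array of time 24, at 67.7 to 76.4, and read 41.3 to 76.7 at time 8. In bulk RNA, fewer cells of a type and less RNA per cell cannot be told apart.

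The driver itself had almost the same signal at both times. This was known when the 2 times were chosen for comparison, so it describes the choice and is no separate result. MYCN read 4420, 4094 and 4600 at time 24, against 3840, 3810 and 4202 at time 8. The ranges of the 2 times overlap, and the difference was 0.15 (SE 0.17, 95% interval -0.21 to 0.50, limma adjusted p = 0.859). Over the course, mean MYCN was 84 for time 0, 2168 by time 4, 3951 by time 8 and 4372 by time 24. Its later means were 4571 (time 48), 3678 (time 96) and 3193 (time 192), and it read 1.6 to 3 in the mock line. MAX, the partner of MYCN on DNA, differed by 0.12 (SE 0.07, limma adjusted p = 0.603), and by -0.24 without probe sets that can match several transcripts. MYC, the family member these cells express without induction, read 85.8, 100 and 65.1 at time 24, against 161, 84.1 and 154 at time 8. MYC overlapped between the times, with a difference of -0.63 and a wide 95% interval of -1.64 to 0.37 (limma adjusted p = 0.723); without replicate 2 it was -1.08 and without replicate 3 it was -0.33.

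Between the 2 times 80 genes changed, 0.674% of the genes tested. Of these, 53 were higher at time 24 (0.447%) and 27 were lower (0.228%). Most changes were moderate: the median was 0.64 for the higher genes and -0.67 for the lower ones, 6 genes were at least 2-fold higher and 4 at least 2-fold lower. In all 80 genes the arrays of time 24 lay wholly beyond those of time 8, which 20.1% of all tested genes also showed (9.66% above and 10.4% below). It was also a condition for naming the largest rises and falls below, so their separate arrays are no further evidence. Without adjustment, 1283 genes had p under 0.05. When arrays were scaled to equal medians, 31 genes were higher and 4 lower, so that 88.6% of calls were higher instead of 66.2%. Blocking on the hybridisation batch gave 275 calls, among them all 80. Replicates 1 and 2 alone, a single batch, gave 27, of which 21 were among the 80. The batch of replicate 3 holds 1 array per time and gives no test.

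**Figure D1:**
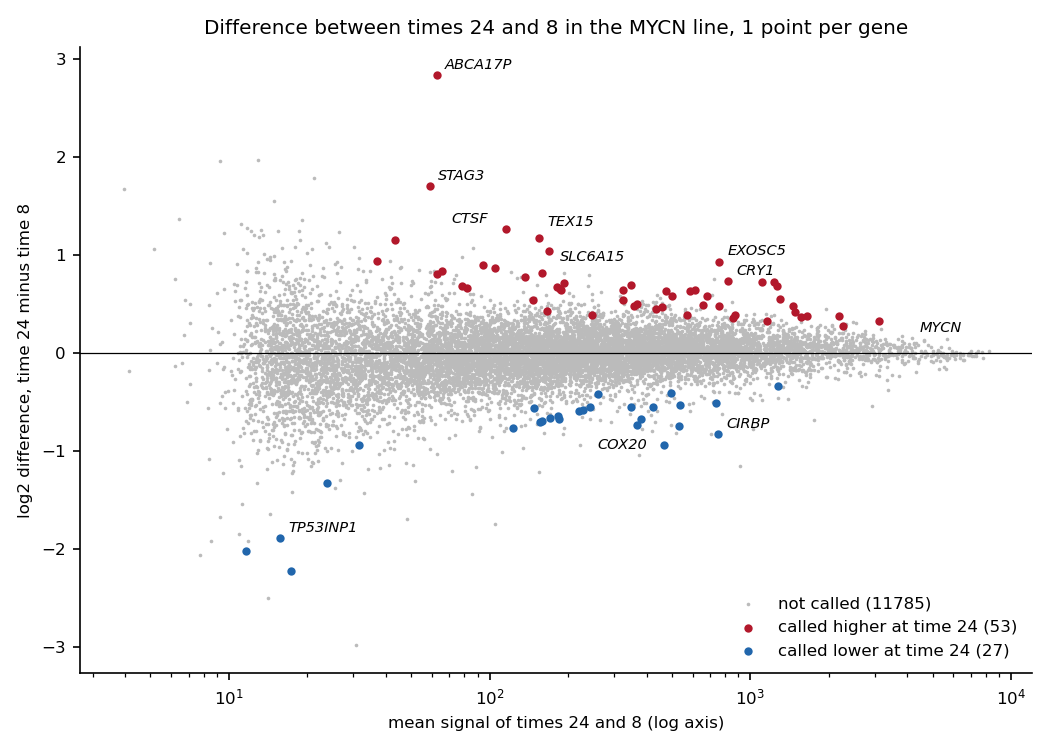
Log2 difference between times 24 and 8 in the MYCN line (vertical axis) against the mean signal of both times (horizontal log axis), with 1 point for each of the 11865 tested genes. The 53 genes called higher lie above the 27 called lower; MYCN sits near 0 at a high signal and ABCA17P at 2.83.

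In the fit without a block, the calls depended on having all 6 arrays. With all arrays, a block for the hybridisation batch gave 275 calls and a block for the replicate number 322. No fit that left out arrays had a block, so how far their lost calls reflect its absence was not tested. Leaving out a single array left 24 calls without replicate 1 of time 24, 33 without its replicate 2 and 27 without its replicate 3. It left 27 calls without replicate 1 of time 8, 45 without its replicate 2 and 34 without its replicate 3. Leaving out a replicate number at every time removes 7 of the 21 arrays and lowers the residual degrees of freedom. That left 2 calls without replicate 1, 6 without replicate 2 and 27 without replicate 3. The 80 genes kept their direction in all fits that left out arrays. That outcome was fixed in advance, because their arrays of the 2 times do not overlap. None of their differences moved by over 1.5 times in these fits. Only ABCA17P and EXOSC5 were called in every one.

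Among the neighbouring steps of the course, the one between times 8 and 24 held the highest number of calls. Time 4 against time 0 had 1 call (0.00843% of genes; 778 at an unadjusted p under 0.05), and time 8 against time 4 had 57 (0.48%), of which 43 were higher. Taken over both of these steps, time 8 against time 0 had 91 calls (0.767%), of which 70 were higher. That is more than the step between times 8 and 24 held. Time 48 against time 24 had 0 calls in limma, with 335 genes at an unadjusted p under 0.05. Time 96 against time 48 had 2 calls (0.0169%) and time 192 against time 96 had 1 (0.00843%). The last of these was PLAT, which was lower again by -0.86 (limma adjusted p = 0.0125). Neighbouring steps share arrays and intervals differ in length, so the counts are given side by side only.

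The strongest riser was ABCA17P, a transcribed pseudogene of the ABC transporter family. Its signal was 105, 117 and 104 at time 24, against 10.6, 23.8 and 14.1 at time 8. All 3 late arrays stood far above the early ones, which lay near the signal of 12.8 that a gene needed on average to be tested. The difference was 2.83 (SE 0.26, limma adjusted p = 7.45e-06), and 1.98 (3.36e-06) with an offset of 16 added to the signal, so its size is uncertain. At times 0 and 4 its mean signal was 19.6 and 14.4, and at times 48, 96 and 192 it was 120, 138 and 140. In the mock line it read 14.8 at time 24 and 11.8 at time 8.

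STAG3, a cohesin subunit of meiotic chromosomes, read 90.9, 84.1 and 93.7 at time 24, against 22, 26.5 and 35.5 at time 8. The groups were wide apart, and the difference was 1.70 (SE 0.19, limma adjusted p = 1.1e-04). TEX15, which mouse studies place in meiotic recombination and transposon silencing, read 224, 185 and 235 at time 24, against 78.2, 110 and 99.6 at time 8. No array of time 24 fell among those of time 8 (difference 1.17, SE 0.18, limma adjusted p = 0.00285). MEIOC, needed in the mouse for germ cells to stay in meiotic prophase, read 139, 114 and 117 at time 24 and 61.2, 78.8 and 58.7 at time 8. Its difference was 0.90 (SE 0.18, limma adjusted p = 0.0243), but 1 of its 2 probe sets above the signal filter had the opposite sign. Between the same times the mock line differed by 0.51 for TEX15, 0.56 for MEIOC and -0.61 for STAG3. Another meiotic gene, SYCP2 of the synaptonemal complex, differed by 0.09 (limma adjusted p = 0.96). These genes were placed together after their values were seen. The STAG3 call ended without replicate 1 or without replicate 2, with differences of 1.53 to 1.89 over all fits that left out arrays. The TEX15 call ended without replicate 1, 2 or 3 at every time (0.99 to 1.38 over the same fits), and the MEIOC call held in 1 of 9 of them (0.76 to 1.09).

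EXOSC5, a subunit of the RNA exosome that trims and degrades RNA, had the smallest adjusted p of all. It read 987, 976 and 1028 at time 24, against 484, 568 and 520 at time 8. The arrays of a time lay close together and the times far apart, so that a difference of 0.93 (SE 0.07) gave a limma adjusted p of 2.94e-07. EXOSC5 was already higher at time 8 than at time 0, by 0.29 (limma adjusted p = 0.0485). MRE11, the nuclease of the complex that senses DNA double-strand breaks, read 127, 138 and 142 at time 24 and 68.8, 82.4 and 71.9 at time 8. It rose by 0.87 (SE 0.14, limma adjusted p = 0.00455), with no overlap. That call ended without replicate 1, 2 or 3 at every time (0.81 to 0.95 over the fits that left out arrays), and the mean of its probe sets differed by 0.33.

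Amino acid transporters supplied 2 of the risers, of 18 on that list that were tested. SLC6A15, which imports neutral amino acids with sodium, read 263, 166 and 258 at time 24, against 106, 105 and 116 at time 8. Replicate 2 of time 24 was the lowest of its group but still above time 8 (difference 1.04, SE 0.17, limma adjusted p = 0.00492). All 4 of its probe sets above the filter had the same sign. SLC7A2, a transporter of arginine and lysine, read 203, 218 and 188 at time 24, against 118, 124 and 104 at time 8. Here too the times were separate, with a difference of 0.81 (SE 0.15, limma adjusted p = 0.0117). Both transporters had already risen by time 8. Against time 0 that rise was 0.96 for SLC6A15 (limma adjusted p = 0.0115) and 0.71 for SLC7A2 (0.0272). The other 16 transporters were not called, and the list's median was 0.04, beside -0.01 over all genes. Without replicate 1 at every time the SLC6A15 call ended (0.91 to 1.26 over the fits that left out arrays), as it did with its probe sets averaged (1.27, limma adjusted p = 0.172), and the SLC7A2 call held in 4 of 9 such fits (0.74 to 0.87). Averaged over its probe sets, SLC7A2 differed by 0.00.

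**Figure D2:**
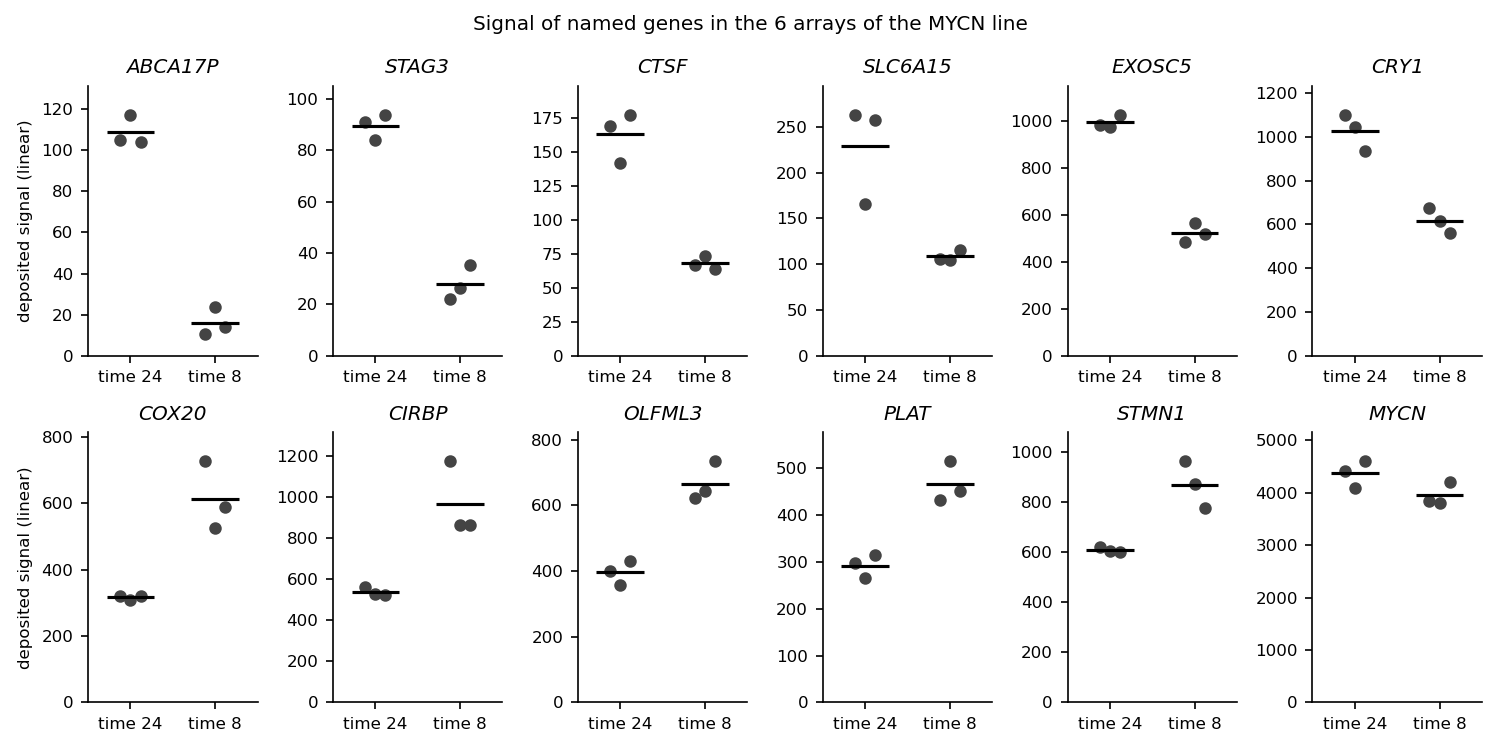
Deposited signal on a linear axis for 12 named genes of the MYCN line, with each array as a point, time 24 left of time 8, and a bar at the mean of 3 arrays. In the 11 called genes the points of the 2 times do not overlap, whereas those of MYCN do, at 4094 to 4600 for time 24 and 3810 to 4202 for time 8.

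CTSF, a lysosomal cysteine protease, read 169, 142 and 177 at time 24, against 66.7, 73.1 and 64.1 at time 8. Every late array lay far above the highest early one (difference 1.26, SE 0.16, limma adjusted p = 4.94e-04). Its call ended without replicate 1 at every time (1.15 to 1.40 over the fits that left out arrays). Of the lysosome list it was no member: among that list's 32 tested genes none was called, and their median was -0.11. GAL, the neuropeptide galanin, read 157, 191 and 170 at time 24, against 97.4, 91.8 and 115 at time 8. It rose by 0.77 (SE 0.14, limma adjusted p = 0.00992) and averaged 303 at time 192. CRY1, a repressor of the circadian clock, read 1100, 1047 and 934 at time 24, against 675, 617 and 562 at time 8. It rose by 0.73 (SE 0.12, limma adjusted p = 0.00614), with no overlap. CRY1 was already higher at time 8 than at time 0, by 0.53 (limma adjusted p = 0.0482). The GAL call held in 3 of 9 fits that left out arrays (0.63 to 0.87; 0.47 and no call with its probe sets averaged) and the CRY1 call in 6 of 9 (0.67 to 0.80).

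The remaining risers among the 14 named by size were dimmer or less certain. NKPD1 read 59.5, 58.7 and 58.9 at time 24, against 18.9, 26.5 and 37.5 at time 8 (difference 1.15, SE 0.24, limma adjusted p = 0.0284). ERO1B, which oxidises the protein folding enzymes of the endoplasmic reticulum, read 95.6, 70.4 and 85.9 at time 24 and 42.5, 56 and 42.6 at time 8. Its difference of 0.84 had a limma adjusted p of 0.0458 (1.44 and 0.0606 with its probe sets averaged), and the mock line differed by 0.62 between the same times. LOC441666 read 95.2, 71.9 and 72.6 at time 24 and 47.5, 46.7 and 42.7 at time 8 (difference 0.80, SE 0.17, limma adjusted p = 0.0298). Its sign turned to -0.46 when all its probe sets were averaged. The mock line differed by 0.55 for LOC441666 and by -0.45 for NKPD1. In all 3 genes the arrays of the 2 times were separate. Their calls held in 2, 1 and 0 of 9 fits that left out arrays, with differences of 0.90 to 1.40 for NKPD1, 0.67 to 1.09 for ERO1B and 0.66 to 0.88 for LOC441666.

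The largest fall among bright genes was that of COX20, an assembly factor of cytochrome c oxidase. It read 322, 308 and 322 at time 24, against 726, 525 and 590 at time 8. Arrays of time 24 were nearly equal, and those of time 8 more scattered and all higher. COX20 fell by 0.94 on the log2 scale (SE 0.17, limma adjusted p = 0.0103). Its 3 probe sets above the filter shared the sign but ran from -1.19 to -0.11. CIRBP, an RNA-binding protein induced by mild cold, read 562, 527 and 522 at time 24, against 1174, 863 and 866 at time 8. Its difference was -0.83 (SE 0.16, limma adjusted p = 0.0124), and the mock line also read lower, at 635 at time 24 and 942 at time 8, a difference of -0.57. The COX20 call held in 4 of 9 fits that left out arrays (-1.04 to -0.81) and the CIRBP call in 2 of 9 (-0.91 to -0.69), with -0.39 and no call when its probe sets were averaged.

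OLFML3, a secreted olfactomedin-like protein, read 400, 357 and 432 at time 24, against 622, 643 and 734 at time 8. The times did not overlap (difference -0.75, SE 0.14, limma adjusted p = 0.0117), and its later means were 323 (time 48), 249 (time 96) and 218 (time 192). PLAT, tissue plasminogen activator, read 297, 266 and 314 at time 24, against 433, 515 and 452 at time 8. PLAT fell by 0.67 (SE 0.12, limma adjusted p = 0.0117) and averaged 115 at time 192, whereas the mock line read 1175 at time 24 and 1181 at time 8. FERMT3, a cytoplasmic activator of integrins best known from blood cells, read 261, 292 and 269 at time 24, against 442, 441 and 490 at time 8 (difference -0.74, SE 0.11, limma adjusted p = 0.00181). P2RX4, an ATP-gated ion channel, read 168, 128 and 136 at time 24, against 219, 238 and 213 at time 8 (difference -0.64, SE 0.14, limma adjusted p = 0.0334). In each of these the highest array of time 24 was below the lowest of time 8. The mock line differed by -0.18 for OLFML3, -0.34 for FERMT3 and -0.23 for P2RX4. Over the 9 fits that left out arrays, the call held in 4 for OLFML3, 3 for PLAT, 6 for FERMT3 and 1 for P2RX4, and the differences were -0.81 to -0.68, -0.75 to -0.54, -0.81 to -0.68 and -0.77 to -0.52.

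Of 26 tested p53 targets, 2 fell. TP53I3, a quinone oxidoreductase induced by p53, read 138, 152 and 137 at time 24, against 224, 226 and 230 at time 8. The early arrays were nearly identical and all higher (difference -0.67, SE 0.14, limma adjusted p = 0.0275). TP53INP1, a p53-induced nuclear protein, was dim: 7.3, 4.1 and 9.5 at time 24, against 23.2, 24.6 and 25.6 at time 8. Its time 24 arrays were below the signal filter of 12.8, so the difference of -1.89 (SE 0.42, limma adjusted p = 0.0445) has an uncertain size, and was -0.82 with an offset of 16 added to the signal. Neither call held in any of the 9 fits that left out arrays, although the differences stayed between -0.72 and -0.63 for TP53I3 and between -2.16 and -1.55 for TP53INP1. Between times 24 and 8 the mock line differed by -0.34 for TP53I3 and by 0.29 for TP53INP1. The median of the p53 list was 0.01, and 13 of 26 members had positive differences, against 5711 of all 11865 tested genes.

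STMN1, stathmin, which destabilises microtubules, was the single called member of 25 tested genes of axon guidance and neuronal differentiation, whose median was -0.23. It read 623, 604 and 603 at time 24, against 964, 872 and 777 at time 8. All late arrays were lower, by 0.51 on the log2 scale at the mean (SE 0.09, limma adjusted p = 0.00992), while the mock line read 606 at time 24 and 607 at time 8. GDAP1, a protein of the outer mitochondrial membrane linked to inherited neuropathy, read 132, 119 and 113 at time 24, against 190, 221 and 180 at time 8 (difference -0.70, SE 0.16, limma adjusted p = 0.0446). The times were separate for it as well. The STMN1 call held in 5 of 9 fits that left out arrays (-0.59 to -0.43), and the GDAP1 call in 0 of 9 (-0.78 to -0.60).

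The other 6 named genes that fell had differences of -0.77 to -0.56. They were REXO5, an RNA exonuclease (-0.77, limma adjusted p = 0.017), PCBP4, a poly(rC)-binding protein (-0.71, 0.0192), C8orf82 (-0.66, 0.0117), MAGED2 of the MAGE family (-0.59, 0.0342), CBR3, a carbonyl reductase (-0.58, 0.0445), and MFSD11 of the major facilitator family (-0.56, 0.0298). None of their arrays overlapped between the times, which was a condition for being named by size. REXO5, for example, read 95.3, 85.8 and 92.1 at time 24, against 167, 142 and 156 at time 8. CBR3 read 201, 167 and 180 at time 24, against 243, 316 and 261 at time 8. Of 9 fits that left out arrays, the call held in 1 for REXO5, 1 for PCBP4, 3 for C8orf82, 1 for MAGED2 and 0 for both CBR3 and MFSD11, and the differences over these genes ranged from -0.83 for REXO5 to -0.41 for CBR3. MAGED2 stood at -0.11 without probe sets that can match several transcripts.

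The other 5 times of the MYCN line share no array with times 24 and 8, and their levels were no term of that contrast. They did enter the choice of these genes through the shared estimate of spread and through the signal filter, which averaged over all arrays. Comparing times 48, 96 and 192 with times 0 and 4 called 52 of the 53 genes higher, against 17.9% of all genes. Positive differences were found in 53 of 53, with a median of 0.71, against 5672 of all 11865 genes. The same comparison called 24 of the 27 genes lower, against 20.4% of all genes. Negative differences were found in 27 of 27, with a median of -0.80, against 6193 of all 11865 genes. The earliest step differed from this: between times 4 and 0, 20 of the 53 were positive (37.7%, against 44.4% of all genes), with a median of -0.03, and the 27 had a median of 0.04. The exceptions were MANF (0.07, limma adjusted p = 0.429), CCDC157 (-0.35, 0.419), ADAMTS13 (-0.31, 0.333) and NBPF20 (-0.11, 0.184), named here because they fell outside the count. CCDC157 and ADAMTS13 were dim, with mean signals of 6.8 and 4.57 at time 24 and 27.8 and 18.6 at time 8. In the mock line the same contrast of times had a median of 0.00 for the 53 higher genes, with 27 positive (50.9%, against 54.3% of all genes). For the 27 lower genes it had a median of -0.08, with 15 negative (55.6%, against 45.7% of all genes). This comparison was added after the data were seen.

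**Figure D3:**
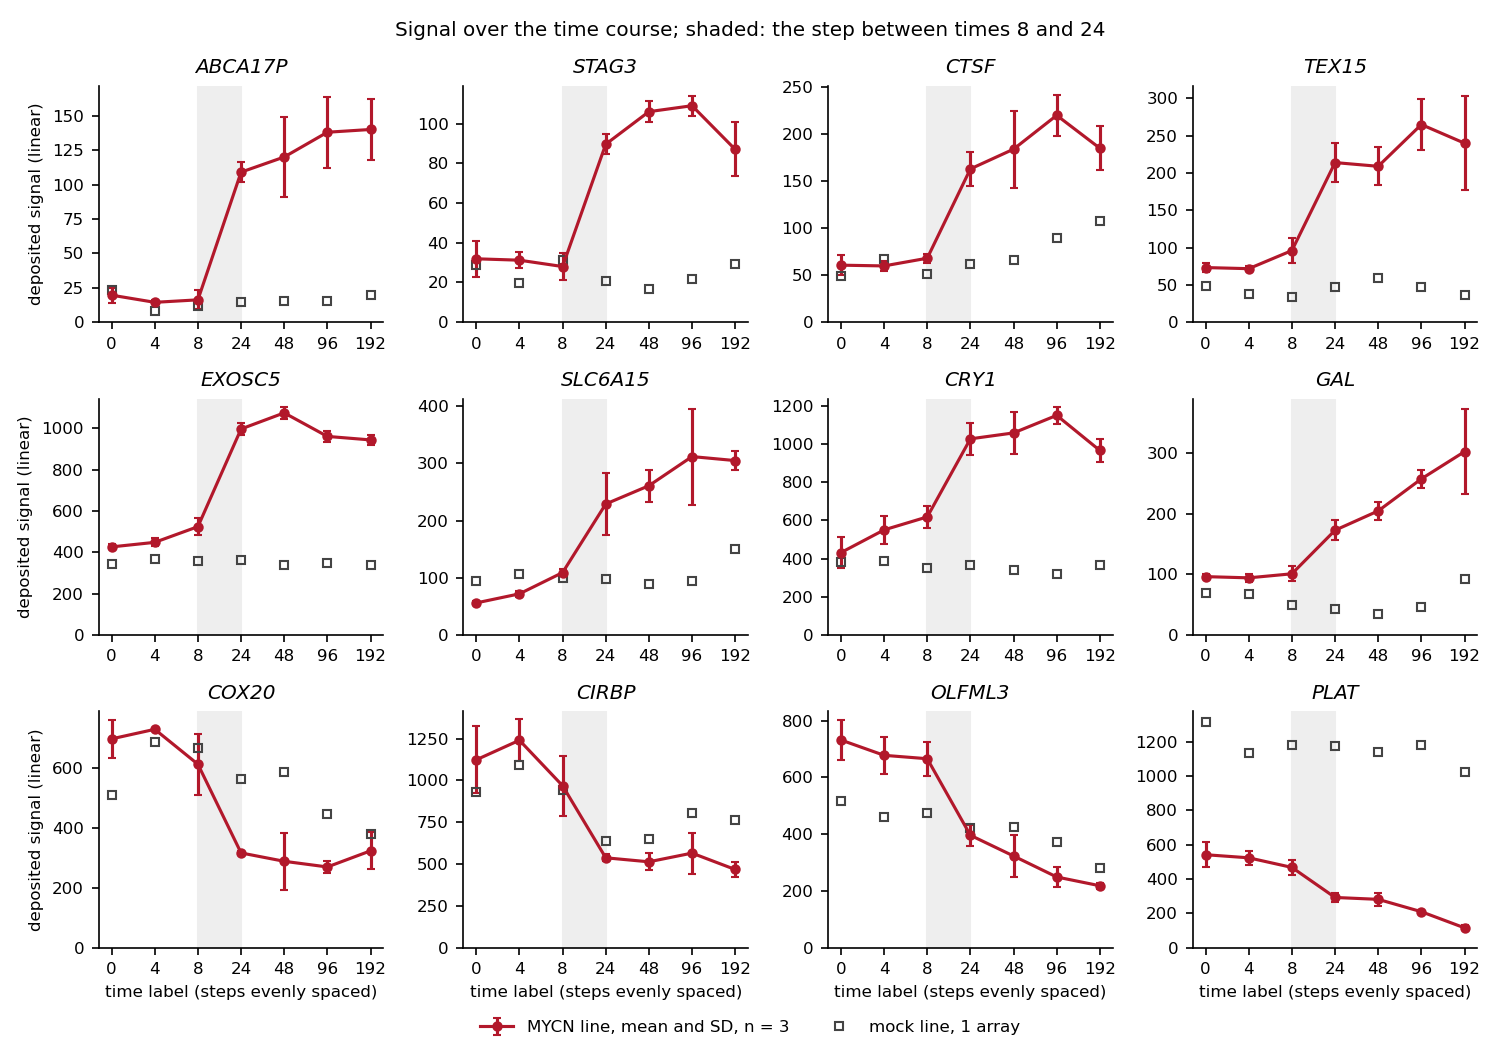
Signal over the 7 time labels, evenly spaced, for 8 genes that rose and 4 that fell between times 8 and 24 (shaded); red points are means of 3 arrays of the MYCN line with SD, and open squares are single arrays of the mock line. ABCA17P is at 14.4 to 19.6 up to time 8 and at 109 to 140 from time 24 on, while PLAT reaches 115 at time 192.

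The mock line has 1 array per time and so no test of its own. Of the 53 higher genes, 34 were also higher at time 24 in the mock line, against 50.3% of all genes, and the median was 0.03. Of the 27 lower genes, 20 were also lower there, against 49.4% of all genes, with a median of -0.18. The difference between the lines was tested gene by gene, with the single mock arrays assumed to vary like those of the MYCN line, and 8 genes were called (0.0674%; 408 at an unadjusted p under 0.05). It left 1 call without replicate 1, 0 without replicate 2 and 1 without replicate 3. Of the 80 genes, this test called STAG3 and EXOSC5. STAG3 differed between lines by 2.31 (limma adjusted p = 0.0245), as the mock line read 20.6 at time 24 and 31.4 at time 8. EXOSC5 differed by 0.91 (limma adjusted p = 0.0066), with mock signals of 362 at time 24 and 356 at time 8. Both of these calls ended without replicate 1, 2 or 3, with differences of 2.14 to 2.46 for STAG3 and 0.86 to 0.98 for EXOSC5. That of STAG3 also ended with an offset of 16 (1.65, limma adjusted p = 0.0788). For the other 78 genes a difference between the lines was not shown, with a single mock array at each time. For CIRBP, whose mock difference was -0.57, the difference between lines was -0.26 (limma adjusted p = 1).

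**Figure D4:**
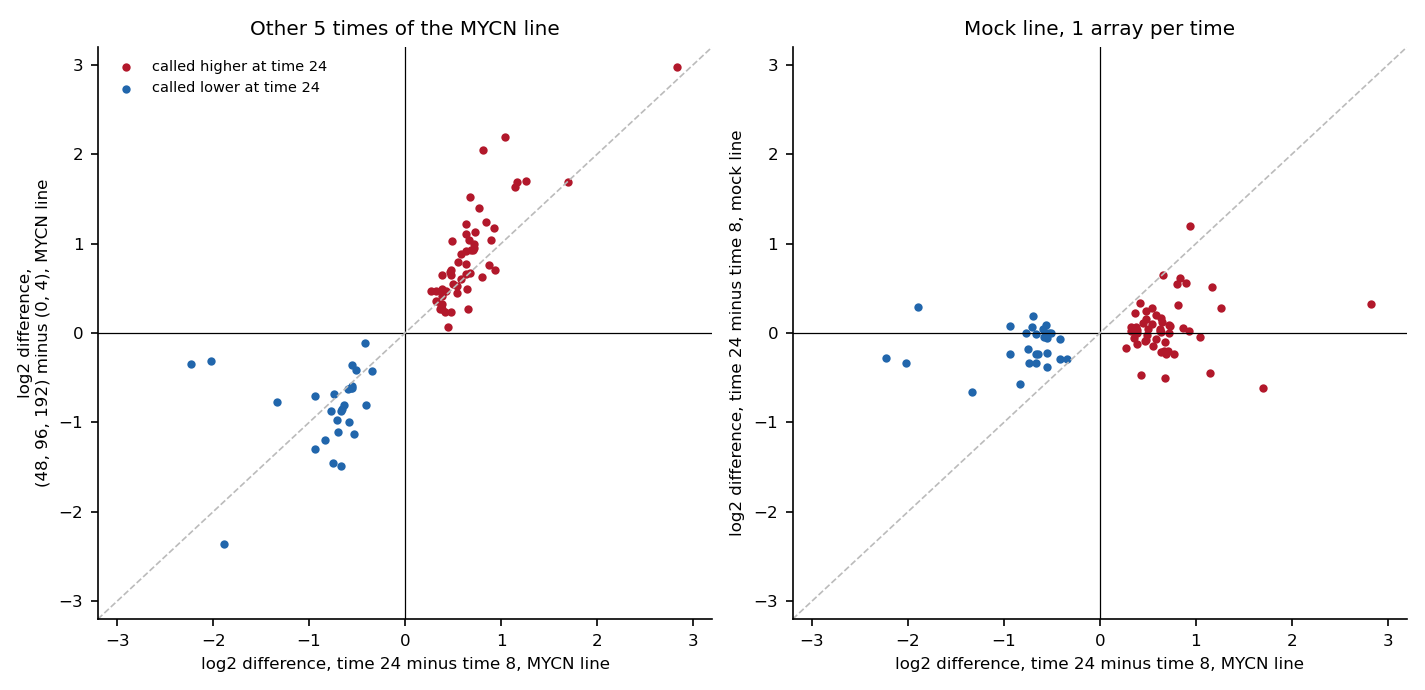
For each of the 80 called genes, the log2 difference between times 24 and 8 in the MYCN line (horizontal) against the difference between times 48, 96 and 192 and times 0 and 4 of the same line (left panel) and against the mock line's own difference between times 24 and 8 (right panel). Red points are the 53 higher and blue points the 27 lower genes; on the left all 80 keep their sign, and on the right their medians are 0.03 and -0.18.

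Promoters are shown because MYCN and MAX bind the E-box CACGTG. Only promoters that hold this motif are printed, and most promoters of the called genes lack it, as the shares below give. The sequences are RefSeq promoters of GRCh38.p14, from 250 bases before to 50 bases after the annotated start, 5′ to 3′ on the gene's strand, with CACGTG in capitals. EXOSC5 (chr19:41397310-41397609, minus strand) holds the motif 89 bases before and 14 bases after its start. CTSF (chr11:66568557-66568856, minus strand) holds it 123 and 51 bases before, STAG3 (chr7:100177474-100177773, plus strand) 23 bases after, and HSPE1 (chr2:197500129-197500428, plus strand) 22 bases before. STMN1 (chr1:25906370-25906669, minus strand), which fell, holds it 94 and 50 bases before its start.
EXOSC5: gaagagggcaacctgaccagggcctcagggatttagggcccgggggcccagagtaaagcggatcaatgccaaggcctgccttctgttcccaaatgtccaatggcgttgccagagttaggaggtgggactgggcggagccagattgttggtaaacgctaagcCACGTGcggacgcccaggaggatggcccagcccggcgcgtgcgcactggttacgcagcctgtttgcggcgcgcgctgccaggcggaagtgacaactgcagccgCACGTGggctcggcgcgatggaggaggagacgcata
CTSF: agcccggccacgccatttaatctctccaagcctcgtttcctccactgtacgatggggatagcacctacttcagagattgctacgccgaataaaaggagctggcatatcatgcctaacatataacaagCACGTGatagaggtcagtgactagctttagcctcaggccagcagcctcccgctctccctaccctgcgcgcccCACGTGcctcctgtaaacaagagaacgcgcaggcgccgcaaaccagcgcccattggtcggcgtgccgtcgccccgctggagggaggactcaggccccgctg
STAG3: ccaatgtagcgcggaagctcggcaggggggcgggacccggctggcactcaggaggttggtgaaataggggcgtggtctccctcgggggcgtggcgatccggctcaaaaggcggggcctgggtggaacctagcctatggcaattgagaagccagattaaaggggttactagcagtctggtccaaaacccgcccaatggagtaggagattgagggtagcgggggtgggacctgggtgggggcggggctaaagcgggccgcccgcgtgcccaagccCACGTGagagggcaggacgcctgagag
HSPE1: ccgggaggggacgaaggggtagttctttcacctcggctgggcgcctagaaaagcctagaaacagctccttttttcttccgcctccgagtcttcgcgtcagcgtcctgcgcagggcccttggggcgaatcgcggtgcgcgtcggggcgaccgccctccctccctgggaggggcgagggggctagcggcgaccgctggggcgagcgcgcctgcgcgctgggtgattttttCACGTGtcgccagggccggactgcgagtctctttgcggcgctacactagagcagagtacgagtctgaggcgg
STMN1: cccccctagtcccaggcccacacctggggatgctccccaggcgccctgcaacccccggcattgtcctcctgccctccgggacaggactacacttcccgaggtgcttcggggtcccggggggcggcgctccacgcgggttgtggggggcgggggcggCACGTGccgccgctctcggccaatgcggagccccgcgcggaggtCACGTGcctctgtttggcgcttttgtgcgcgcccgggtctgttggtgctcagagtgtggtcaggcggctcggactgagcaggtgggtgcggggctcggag

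Of the 53 higher genes 43 had a promoter in the table, and 11 of these (25.6%) held CACGTG on either strand. Among the 27 lower genes 19 had a promoter, and STMN1 alone held it (5.26%). Of all tested genes with a promoter, 1023 of 9731 held it (10.5%), and of all 27305 promoters 7.43% did. Besides the genes shown, the holders among the higher genes were CUTA, DNAAF5, HERC5, LONP1, NEMP1, PRDX4 and REXO2. CACGCG, a second sequence that MYC proteins bind, was in 27.9% of the higher, 15.8% of the lower and 18.5% of all tested promoters. TGACTCA, the AP-1 motif, was in none of the higher promoters, 5.26% of the lower ones and 2.89% of all tested. The core of interferon response elements was in 2.33%, none and 2.73% of the same groups. CACGTG and CACGCG differ in a base and were counted separately. These shares describe letters in a window and were given no test.

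Of the 80 called genes, 13 (16.2%) were on 1 of 38 gene lists, against 907 of the 11865 tested genes (7.64%), and 67 were on none. The lists were written with earlier results of these data known, so these shares are a description and no test of enrichment. Cytosolic and mitochondrial chaperones held the most calls, with 3 of 28 tested higher, none lower, and a median of 0.11. STIP1, which links HSP70 to HSP90, read 1846, 1774 and 1956 at time 24, against 1376, 1458 and 1455 at time 8. It rose by 0.38 (SE 0.07, limma adjusted p = 0.014). FKBP4, an HSP90 co-chaperone, read 673, 858 and 929 at time 24, against 468, 560 and 613 at time 8, and rose by 0.58 (SE 0.11, limma adjusted p = 0.0215). HSPE1, the mitochondrial co-chaperonin, read 3605, 3356 and 3403 at time 24, against 2772, 2936 and 2592 at time 8. It rose by 0.32 (SE 0.07, limma adjusted p = 0.0458). In each of the 3 the times were separate. Of the 28 chaperones, 25 had positive differences, against 5711 of the 11865 tested genes. The calls held in 3, 2 and 0 of 9 fits that left out arrays, at 0.34 to 0.43, 0.47 to 0.72 and 0.28 to 0.39, and FKBP4 stood at 0.30 without probe sets that can match several transcripts.

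Nucleotide, serine and one-carbon synthesis held 2 higher genes of 31 tested, with a median of 0.12 and 23 positive differences. PFAS, an enzyme of purine synthesis, read 405, 392 and 491 at time 24, against 289, 300 and 319 at time 8 (difference 0.50, SE 0.11, limma adjusted p = 0.0396). GART, which catalyses several steps of the same pathway, read 1782, 1706 and 1595 at time 24, against 1096, 1420 and 1296 at time 8 (difference 0.42, SE 0.09, limma adjusted p = 0.0418). The arrays did not overlap for either enzyme, but only 4 of 8 GART probe sets above the filter shared its sign, their mean differed by 0.10, and the mock line differed by 0.34. Calls held in 0 of 9 fits that left out arrays for PFAS (0.40 to 0.56) and in 1 of 9 for GART (0.28 to 0.51). Other purine enzymes on the list were not called, among them PAICS at 0.24 (limma adjusted p = 0.218) and ATIC at 0.20 (0.224).

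The respiratory chain, the clock and the endoplasmic reticulum stress lists held 1 higher gene each. NDUFA8, a subunit of complex I, read 1348, 1227 and 1272 at time 24, against 1004, 1088 and 1000 at time 8. It rose by 0.32 (SE 0.07, limma adjusted p = 0.0321), 1 of 33 tested respiratory genes, whose median was 0.10. MANF, a protein secreted under stress of the endoplasmic reticulum, read 501, 448 and 562 at time 24, against 338, 356 and 409 at time 8. It rose by 0.45 (SE 0.10, limma adjusted p = 0.0458), and its mean at time 0 was 553, above both groups. Of the other 29 tested genes of that list none was called, and CRELD2, a stress-induced chaperone, differed by -0.59 (limma adjusted p = 0.0523). Beside CRY1, 17 tested clock genes were not called, with PER2 at 0.53 (limma adjusted p = 0.0514) and BMAL1 at -1.12 (0.0574). Calls held in 1 of 9 fits that left out arrays for NDUFA8 (0.26 to 0.39) and 2 of 9 for MANF (0.37 to 0.53).

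The lists that follow had no called member, and their medians are given without a test beside the -0.01 of all genes. Of all 11865 tested genes, 5711 had positive differences. At an unadjusted p under 0.05, 689 of them were higher and 594 lower. DNA replication and E2F targets had a median of 0.15, with 41 of 46 differences positive, and the mock line's median for them was 0.14. The helicase loader CDC6 stood at 0.45 (limma adjusted p = 0.146) and the phosphatase CDC25A at 0.83 (0.0999). Mitochondrial ribosomal proteins (38 tested) and nucleoporins and nuclear transport (36 tested) had medians of 0.10 each, with 30 positive differences in either list and mock medians of -0.12 and -0.01. Nucleolar ribosome biogenesis had a median of 0.06 over 44 genes and cytosolic ribosomal proteins -0.02 over 25. Cholesterol and fatty acid synthesis had the lowest median together with the noradrenergic list, -0.27 over 25 genes, of which 1 was positive and 7 were lower at an unadjusted p under 0.05. The mock line's median for the cholesterol genes was 0.10. SREBF1, a regulator of lipid synthesis, stood at -0.87 (limma adjusted p = 0.17), LSS, which makes the first sterol, at -0.62 (0.181) and IDI1, of isoprenoid synthesis, at -0.46 (0.138). Noradrenergic markers had a median of -0.27 over 15 genes, with 3 positive and a mock median of 0.17, and the summed signals of that list given above did not overlap between the times. Such sums weigh bright genes most. SCG2 averaged 509 at time 24 and 906 at time 8, PRPH averaged 380 and 660, and neither was called. Collagens had a median of -0.15. With arrays scaled to equal medians, which moves the median of all genes to 0.08, 5 lists with small medians turned their sign. The interferon list stood at 0.03 instead of -0.06, the TGF-beta list at 0.06 instead of -0.03, the mesenchymal list at 0.04 instead of -0.04, the integrin and laminin list at 0.05 instead of -0.03 and the cytosolic ribosomal proteins at 0.06 instead of -0.02. The cholesterol and noradrenergic medians were -0.19 under that scaling and the DNA replication median 0.24.

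**Figure D5:**
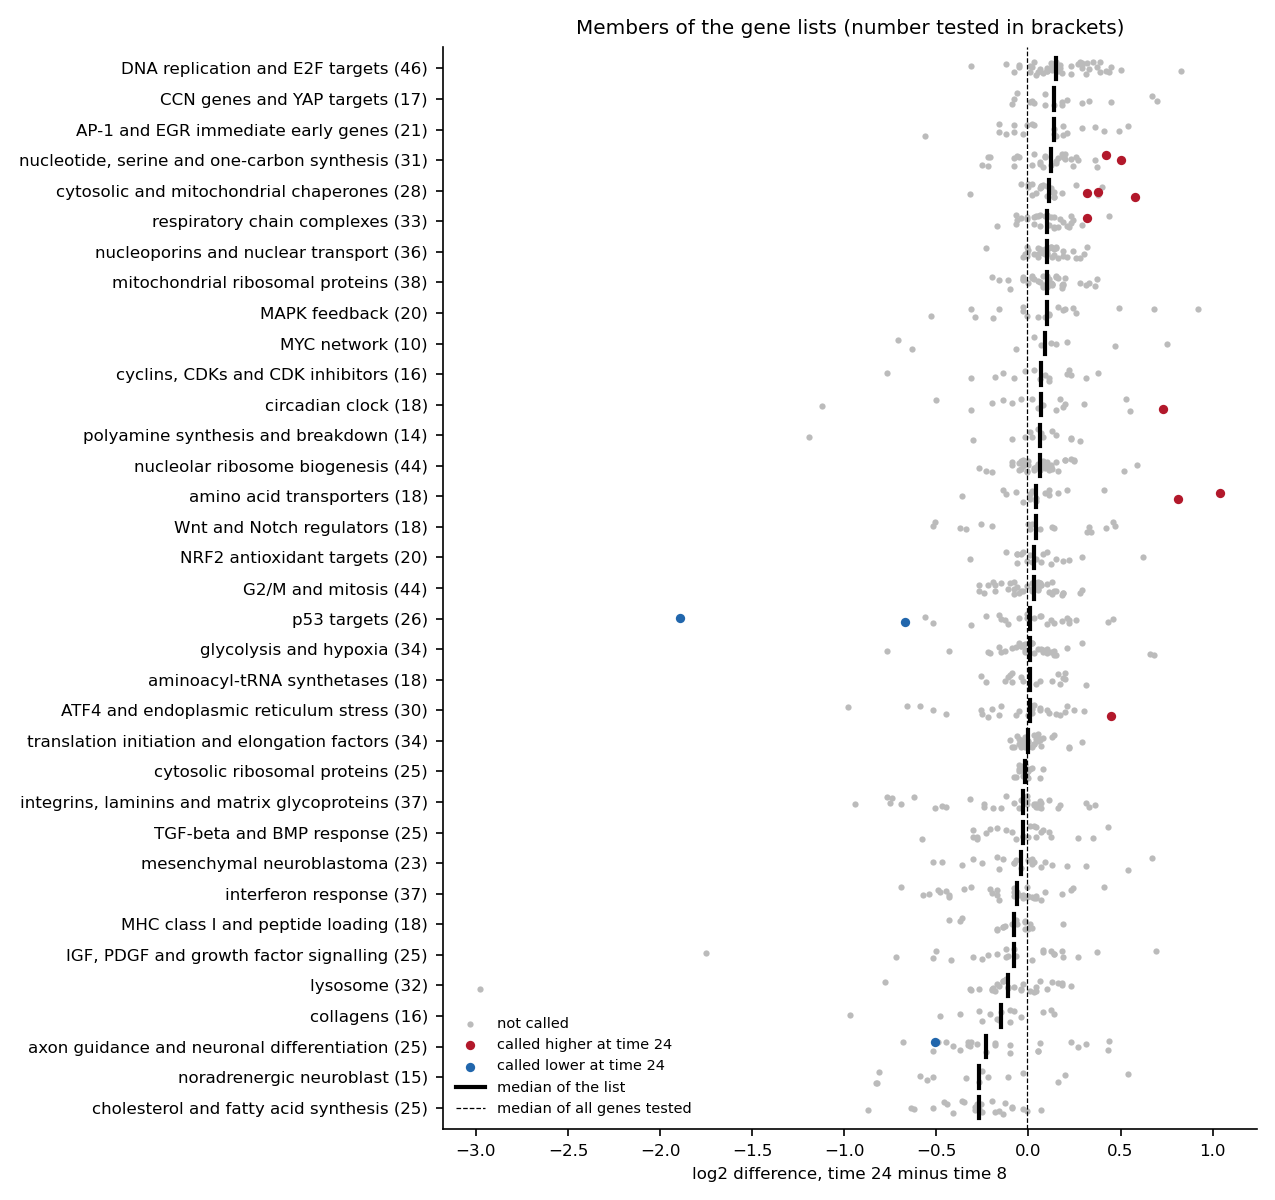
Log2 difference between times 24 and 8 of every tested member of the gene lists with 10 or more tested genes, 1 point per gene, with the number tested in brackets, the list's median as a bar and the median of all genes as a dashed line. Red and blue points are called genes; the medians run from 0.15 for DNA replication and E2F targets at the top to -0.27 for cholesterol and fatty acid synthesis at the bottom.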

How the data were processed

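RNA of the 28 samples was measured on single-colour Affymetrix arrays, 1 array per sample. Per the labels, biotin-labelled cRNA was made from total RNA. The deposited table gives linear intensity for each probe set in each array. MAS5 and GCOS, per the submitters' processing notes, made these values, with versions not given in the sources used here. Replicates were not pooled. With 2% cut from either end, the deposited values of every array averaged 100, so no further normalization was applied.

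Of 54675 probe sets, 41091 named 1 gene in the platform annotation, 1801 several, 11721 none and 62 were controls; only the first kind was used, and 41037 matched an identifier in current use. Values of 0 or less (91) were set to 0.1 and deposited intensity was taken to log2. Each of 19775 genes was read by its brightest probe set; 32 called genes had further probe sets above the filter, and in 27 all shared the sign. A gene was tested when its mean log2 signal reached the 40th percentile (3.68, a signal of 12.8), which 11865 genes did (60%). In 3 called genes the lower group was under that signal. MAS5 values scatter widely at low signal, which makes folds of dim genes uncertain.

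Tests were two-sided and used limma 3.58.1 in R 4.3.3, with lmFit and trended eBayes, with Benjamini-Hochberg adjustment over all tested genes and a threshold of 0.05. The fit of the MYCN line took 21 arrays, 1 mean per time and no replicate block, which left 14 residual degrees of freedom. The difference between lines was fitted over all 28 arrays, also with 14. Scripts were tested on simulated data. The members and gene lists were chosen with earlier results of these data known. The rule for named genes took MYCN, MYC and MAX; the 14 largest rises and 14 largest falls among called genes with no overlap and a higher group mean of at least 50; up to 4 called members of each list with the smallest p; and up to 5 genes in each direction called between the lines with a highest group mean of at least 50. Genes outside it were named after their values were seen. Alternatives changed the arrays fitted, scaling, probe sets, filter, offset and blocks.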

Additional observations from a re-analysis of the deposited data

Results flagged for a closer look

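The difference between times 24 and 8 differed between the MYCN line and the mock line in 6 named genes by the test of that difference. STAG3 (2.31, limma adjusted p = 0.0245) and EXOSC5 (0.91, limma adjusted p = 0.0066) were also called within the MYCN line.

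In the other 4 the MYCN line showed no called change. SYCP2, a protein of the synaptonemal complex, differed by 3.79 (limma adjusted p = 0.00259): its difference was 0.09 in the MYCN line, and the mock line read 0.9 at time 24 and 11.7 at time 8. LRRC61 differed by 3.52 (limma adjusted p = 0.00928), with 0.35 in the MYCN line and mock signals of 3 at time 24 and 27.1 at time 8. ZYG11A differed by 3.47 (limma adjusted p = 0.00158), with 0.33 in the MYCN line and mock signals of 1.1 at time 24 and 9.7 at time 8. STAT6, a transcription factor of interleukin signalling, differed by -2.82 (limma adjusted p = 1.92e-05), with -0.31 in the MYCN line and mock signals of 25.2 at time 24 and 4.4 at time 8. Each of these rests on a single mock array with a signal of 4.4 or less. For SYCP2 and ZYG11A both mock signals were under the 12.8 a gene needed on average to be tested, so the size of their differences cannot be interpreted. With an offset of 16 added to the signal the differences were 0.78 for SYCP2, 1.44 for LRRC61, 0.85 for ZYG11A and -1.30 for STAT6, and all 4 calls ended. Leaving out any replicate number also ended the calls of SYCP2, LRRC61 and ZYG11A. That of STAT6 ended without replicate 2 (-2.77, limma adjusted p = 0.0597) and with the mean of all probe sets (-1.46, 0.108). What gave those signals was not tested.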

How the results depend on the processing

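Against 80 called genes (53 higher, 27 lower), the replicate block gave 322 (201, 121), the hybridisation batch as a block 275 (171, 104), the batch of replicates 1 and 2 alone 27 (20, 7), equal medians 35 (31, 4), the mean of all probe sets 51 (34, 17), leaving out _s_at and _x_at probe sets 50 (33, 17) and no filter on signal 52 (33 higher). The block and the batch kept all 80. An offset of 16 before the log2 gave 45 lower genes. Only the 6 arrays gave 72 (37, 35), of which 45 were among the 80. Leaving out a single array gave 24 to 45 calls, and leaving out a replicate number at every time gave 2 to 27. Over both kinds of fit, 2 to 34 were higher and 0 to 11 lower. Deviations of arrays with the same replicate number correlated at 0.114, 0.078 and 0.428, so the numbers were not taken to pair the arrays; replicates 1 and 2 of time 24 correlated best with each other's number and replicate 3 with its own.

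The test between lines (8 genes) gave 2 with the 60th percentile filter, 1 with the offset and 14 with the batch as a block. It gave 0 to 1 in fits that left out a replicate number of the MYCN line. With the mean of all probe sets 75 of 78 called genes kept their direction, and LOC441666 (-0.46), PSTK (-0.12) and THADA (-0.35) turned. Differences moved by over 1.5 times in 12 of those 78, in 4 of 56 without _s_at and _x_at probe sets and in 5 of 80 with the offset, and in none under the other alternatives run. The genes recovered in the other 5 times numbered 35 to 53 higher and 17 to 24 lower. Dim signals limit ADAMTS13, CCDC157 and TP53INP1. Causes of these shifts were not tested.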

Other observations

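Called genes outside the lists included several others with close arrays; they were picked after their values were seen. GTF3A, the transcription factor of 5S ribosomal RNA genes, read 1533, 1464 and 1579 at time 24, against 897, 940 and 948 at time 8. All late arrays were higher (0.72, SE 0.07, limma adjusted p = 1.13e-05), and the mock difference was 0.00. UNG, which removes uracil from DNA, read 1418, 1485 and 1234 at time 24, against 794, 895 and 813 at time 8 (0.72, SE 0.10, limma adjusted p = 0.00181). Neither gene overlapped between the times, and both calls ended without replicate 1 at every time, that of UNG also without replicate 2. GTF3A stood at 0.23 (limma adjusted p = 0.678) without probe sets that can match several transcripts. The differences were 0.69 to 0.75 for GTF3A and 0.67 to 0.80 for UNG over the fits that left out arrays.

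Further genes were picked in the same way. SLC25A26, the mitochondrial carrier of S-adenosylmethionine, differed by 0.69 (limma adjusted p = 0.00295), LONP1, a protease of the mitochondrial matrix, by 0.63 (0.0471), REXO2, an oligoribonuclease, by 0.55 (0.00673), and PHB1, prohibitin, by 0.27 (0.0342). PRDX4, a peroxidase of the endoplasmic reticulum, differed by 0.38 (limma adjusted p = 0.00211) and RPIA, of the pentose phosphate pathway, by 0.49 (0.00673). The calls of LONP1 (0.50 to 0.72) and PHB1 (0.24 to 0.31) held in 0 of 9 fits that left out arrays, those of REXO2 (0.49 to 0.61), PRDX4 (0.34 to 0.45) and RPIA (0.43 to 0.54) in 6 of 9, and that of SLC25A26 (0.61 to 0.78) in 7 of 9. With probe sets averaged, REXO2 stood at 0.22 (limma adjusted p = 0.835), PHB1 at 0.15 (0.436) and LONP1 at 0.63 (0.0559), none of them called. Among the lower ones, CTSO, a cysteine protease like CTSF, read 26.3, 19.3 and 19.8 at time 24, against 37.5, 43 and 44 at time 8 (-0.94, limma adjusted p = 0.0423). Its arrays were separate, in the direction opposite to CTSF. KCNS1, a potassium channel subunit, differed by 0.94 in the MYCN line (limma adjusted p = 0.0243) and by 1.20 in the mock line. It and CTSO held their calls in 1 and 0 of 9 fits that left out arrays, at 0.84 to 1.05 and -1.15 to -0.83.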
